A study of Arabidopsis thaliana with 9 samples.

Results

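The hypoxia-responsive loci described here are 10 Arabidopsis genes, listed by locus identifier as a core of the response of seedlings to low oxygen. Of these, 8 had a probe set paired with exactly 1 gene, out of 16722 such probe sets on the array. They were AT3G23170, AT5G66985, AT3G10020, AT3G27220, AT1G19530, AT4G24110, AT5G10040 and AT4G27450. The probe set of AT1G33055 is shared with a neighbouring locus, and AT5G39890, the plant cysteine oxidase gene PCO2, had no named probe set, so neither was analysed here. Across the 8 loci there was no common rise in the in-flight roots. Of these, AT5G10040 and AT4G24110 read below the array median on all 9 arrays, so a change in them may not have been detectable. AT3G23170 rose in both in-flight groups relative to the ground roots, AT5G66985 fell in both, and AT1G19530 differed between the in-flight groups. The AT3G23170 calls held under all 16 alternative settings of the test. The AT5G66985 call in last-actuated roots held under 12 of them and the AT1G19530 call under 10.

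RNA came from whole roots of 10-day-old seedlings of the Wassilewskija (WS) ecotype, raised in constant light, and was hybridised to the Affymetrix AraGene 1.0 ST array. Every plant, ground roots included, carried pCaMV35S:14-3-3κ:GFP, a fusion of the 14-3-3κ protein to green fluorescent protein driven by the viral 35S promoter, which is active in most plant cells, so no group without the transgene was analysed. Seedlings sat on wetted tissue in sealed fixation tubes that release RNAlater, a solution that halts changes in RNA, when actuated. The ground tube, which a team member held, was actuated during the flight of an F-104 jet, and the in-flight tubes travelled in flight suit pockets. By the labels' protocol the first-actuated tube was triggered during low-altitude acceleration, and the last-actuated tube after a climb at 4 g of roughly 30 s and about 10 s of microgravity. The design text gives a time about 1.5 min after level flight was regained for in-flight actuation and does not tell the tubes apart. Each group of 3 arrays came from roots of a single tube, so tube and condition cannot be told apart, and p-values cover only the variation among pools of roots taken from that tube. All 3 groups came from sealed tubes, and roots from an open plate were not analysed here. The comparisons can therefore show whether the tubes differed in the low-oxygen response, not whether sealing itself raised it.

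Plant cells sense oxygen through group VII ethylene response factors. In air, plant cysteine oxidases such as PCO2 oxidise the cysteine at the start of these transcription factors, which marks them for arginylation and destruction. When oxygen falls the factors persist and switch on a small set of genes, among them those of ethanolic fermentation and many loci of unknown function. Roots, with high respiration and tissue that limits oxygen entry, are a classic site of this response. Among the loci measured, AT3G27220 belongs to the kelch-repeat family and AT4G27450 encodes a protein resembling those induced by aluminium. The others are counted among hypoxia-induced genes whose proteins have no established function.

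Values are log2 expression levels after the authors' array normalization, and 1 unit is a 2-fold difference. The array medians lay between 3.27 and 3.35, and arrays correlated with each other at 0.98 to 0.9895 over all 38408 probe sets. A level is read here only within a probe set, since probes differ in brightness. Of 18 root marker genes 2 were measured, EXPA7 and EXPA18, both of root hair cells, and both lay above the array medians on all 9 arrays. EXPA7 read 5.09 to 5.54 on the ground, 4.53 to 4.87 on the first-actuated and 5.02 to 5.51 on the last-actuated arrays, so all first-actuated arrays lay below all others. Its first-actuated difference from ground was -0.59 ± 0.15 (SE), and the last-actuated level exceeded the first-actuated level by 0.58 ± 0.15, and both missed the threshold (limma adjusted p = 0.0584 and 0.0527). EXPA18 read 5.81 to 6.45, with differences of 0.00 to 0.04. Of 18 shoot marker genes 1 was measured. RCA, which encodes the activase of the carbon-fixing enzyme Rubisco, read 7.996 to 8.17 on the ground arrays, 8.27 to 8.41 on the first-actuated and 8.27 to 8.42 on the last-actuated arrays. Its differences from ground of 0.24 ± 0.09 and 0.26 ± 0.09 did not pass limma's test (adjusted p = 0.175 and 0.224). The part of these markers in the results below was not tested. In whole roots, fewer cells of a type and less RNA per cell cannot be told apart.

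AT3G23170 had the clearest difference from ground. It read 6.82, 7.00 and 6.90 on the ground arrays, 7.96, 8.02 and 7.83 on the first-actuated arrays, and 7.70, 7.78 and 7.78 on the last-actuated arrays. Every in-flight array lay above every ground array, and the replicates of a group spread by an SD of 0.05 to 0.09. The rise in first-actuated roots was 1.03 ± 0.09 (SE), or 2.05-fold with a 95% interval of 1.79 to 2.35, by limma (adjusted p = 0.000241). The rise in last-actuated roots was 0.85 ± 0.09, or 1.80-fold with an interval of 1.57 to 2.07 (limma adjusted p = 0.000909). These comparisons share the ground arrays. The last-actuated arrays lay below the first-actuated ones without overlap, yet the difference of -0.18 ± 0.09 did not pass (limma adjusted p = 0.301). Of 394 probe sets called higher in first-actuated roots, 86 changed by more than AT3G23170, and of 162 called higher in last-actuated roots, 65 did.

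**Figure D1:**
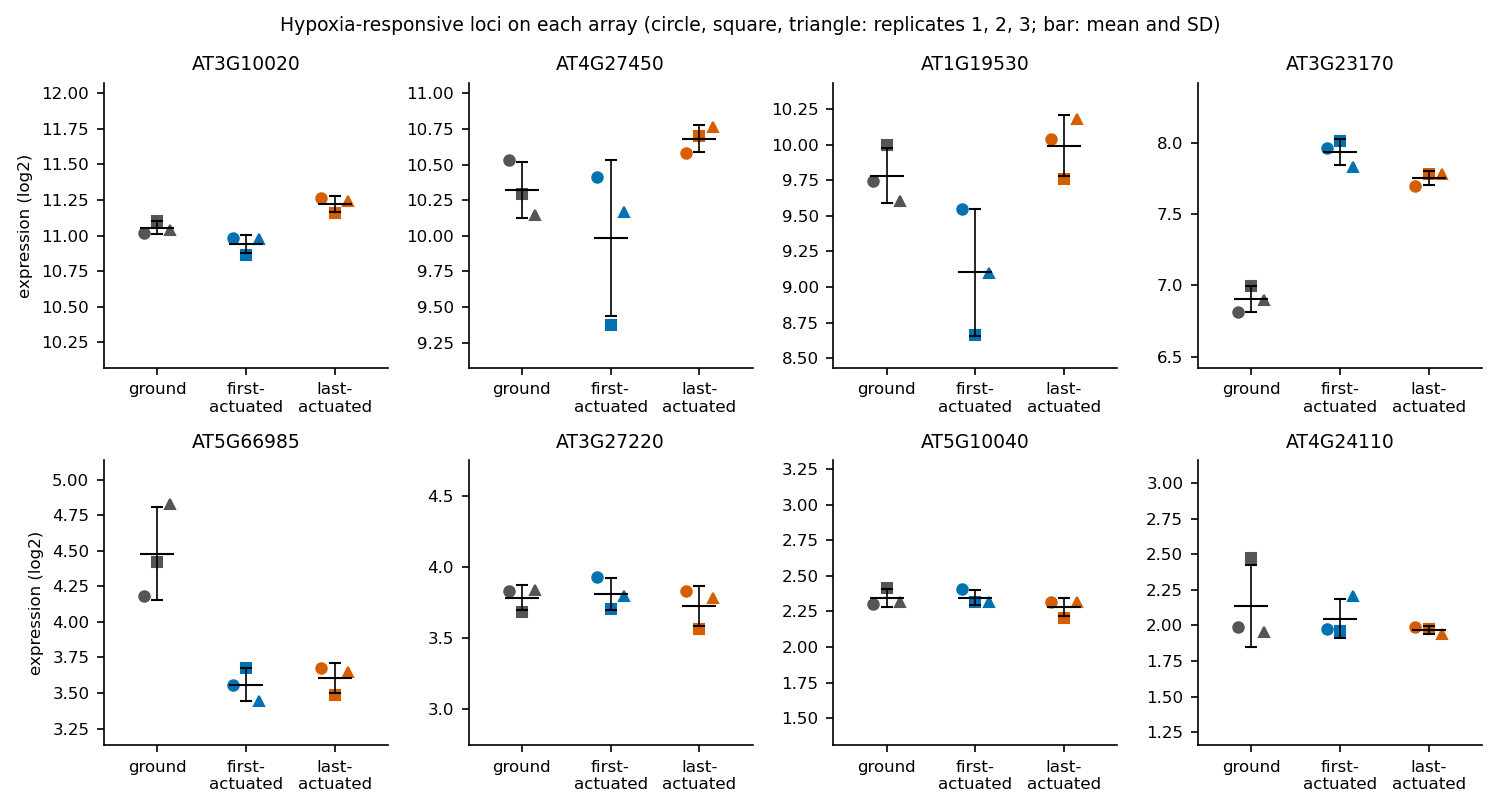
Log2 expression of the 8 measured loci on each array, with 1 panel per locus ordered by mean level and a vertical range of its own of at least 2 log2 units. Points are arrays (circle, square and triangle for replicates 1, 2 and 3) and bars are the group mean and SD of 3 arrays. AT3G23170 lies higher and AT5G66985 lower on all in-flight arrays than on ground arrays, and first-actuated replicate 2 is the lowest array for AT4G27450 and AT1G19530.

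AT5G66985 moved the other way. Its probe set read 4.18, 4.42 and 4.83 on the ground arrays, 3.56, 3.67 and 3.44 on the first-actuated arrays, and 3.68, 3.48 and 3.65 on the last-actuated arrays. The in-flight arrays lay below every ground array, and were close to the array medians. Replicates spread more widely in the ground group (SD 0.33) than in the first-actuated (SD 0.12) or last-actuated group (SD 0.10). In first-actuated roots AT5G66985 fell by 0.92 ± 0.15 (SE), to 0.528 of its ground level with a 95% interval of 0.419 to 0.666 (limma adjusted p = 0.00675). In last-actuated roots it fell by 0.87 ± 0.15, to 0.546 with an interval of 0.433 to 0.688 (limma adjusted p = 0.0158). The call in last-actuated roots was lost without ground replicate 2, last-actuated replicate 2 or last-actuated replicate 3 (limma adjusted p = 0.052 to 0.0786). The in-flight groups differed from each other by 0.05, with a 95% interval of -0.29 to 0.38.

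AT1G19530 and AT4G27450 were bright and shared an order of group means, lowest in first-actuated and highest in last-actuated roots. AT1G19530 read 9.75, 9.99 and 9.61 on the ground, 9.55, 8.66 and 9.10 in the first-actuated group, and 10.04, 9.76 and 10.18 in the last-actuated group. All first-actuated arrays lay below all others, as for the root hair marker EXPA7 but not for EXPA18, while ground and last-actuated arrays overlapped. The last-actuated level was higher than the first-actuated level by 0.89 ± 0.21 (SE), or 1.86-fold with an interval of 1.35 to 2.55 (limma adjusted p = 0.0278). Against ground, the first-actuated difference was -0.68 ± 0.21 and did not pass (limma adjusted p = 0.0951), nor did the last-actuated difference of 0.21 ± 0.21 (limma adjusted p = 0.739).

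The AT1G19530 call rests on few arrays. Without first-actuated replicate 2, its lowest array, the difference between the in-flight groups was 0.67 (limma adjusted p = 0.0724). It also missed the threshold without first-actuated replicate 3, last-actuated replicate 1 or last-actuated replicate 3, with limma adjusted p up to 0.113. Without first-actuated replicate 1 the difference from ground passed, at -0.90 (limma adjusted p = 0.023).

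For AT4G27450 the same first-actuated array stood out. The ground arrays read 10.53, 10.29 and 10.14, the first-actuated arrays 10.41, 9.37 and 10.16, and the last-actuated arrays 10.58, 10.70 and 10.77. Last-actuated arrays lay above all others, whereas ground and first-actuated arrays overlapped, with an SD of 0.55 in the first-actuated group against 0.20 on the ground and 0.09 in the last-actuated group. The difference between the in-flight groups was 0.70 ± 0.23 (SE), with a 95% interval of 0.20 to 1.20, and did not pass (limma adjusted p = 0.106). It passed without first-actuated replicate 1, at 0.92 (limma adjusted p = 0.0376). Against ground the first-actuated difference was -0.34 ± 0.23 and the last-actuated difference 0.36 ± 0.23, and neither passed (limma adjusted p = 0.48 and 0.563).

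AT3G10020 was bright and varied little within groups, with SDs of 0.05 to 0.07. It read 11.02, 11.11 and 11.04 on the ground, 10.98, 10.86 and 10.97 in the first-actuated group, and 11.27, 11.16 and 11.24 in the last-actuated group. No array of a group overlapped those of another, in the same order of means as for AT1G19530 and AT4G27450. The differences were small, and none passed limma's test. The first-actuated difference from ground was -0.11 with a 95% interval of -0.29 to 0.07, so a rise above 1.05-fold lay outside that interval. In last-actuated roots the difference was 0.17, with an interval of -0.01 to 0.35 (limma adjusted p = 0.426). Between the in-flight groups it was 0.28 ± 0.08 (SE) and missed the threshold (limma adjusted p = 0.0736). It passed when arrays were centred on their medians (0.32, limma adjusted p = 0.0457) and with trended, robust variance moderation (limma adjusted p = 0.0225).

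The remaining 3 loci differed little between groups. AT3G27220, the kelch-repeat gene, read 3.83, 3.68 and 3.84 on the ground, 3.93, 3.71 and 3.79 in the first-actuated group, and 3.83, 3.57 and 3.78 in the last-actuated group. These arrays overlapped in every comparison, with a first-actuated difference from ground of 0.03 (interval -0.20 to 0.26) and a last-actuated difference of -0.06 (interval -0.29 to 0.17). AT5G10040, at 2.21 to 2.42, and AT4G24110, at 1.94 to 2.47, lay below the array median on all 9 arrays. Their differences lay between -0.17 and 0.00 in the 3 comparisons. AT5G10040 read the same value to 4 decimals, 2.3152, on ground replicate 3, first-actuated replicates 2 and 3 and last-actuated replicates 1 and 3. Signal over background was not known for these dim probe sets, so a change in either transcript may not have been detectable.

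**Figure D2:**
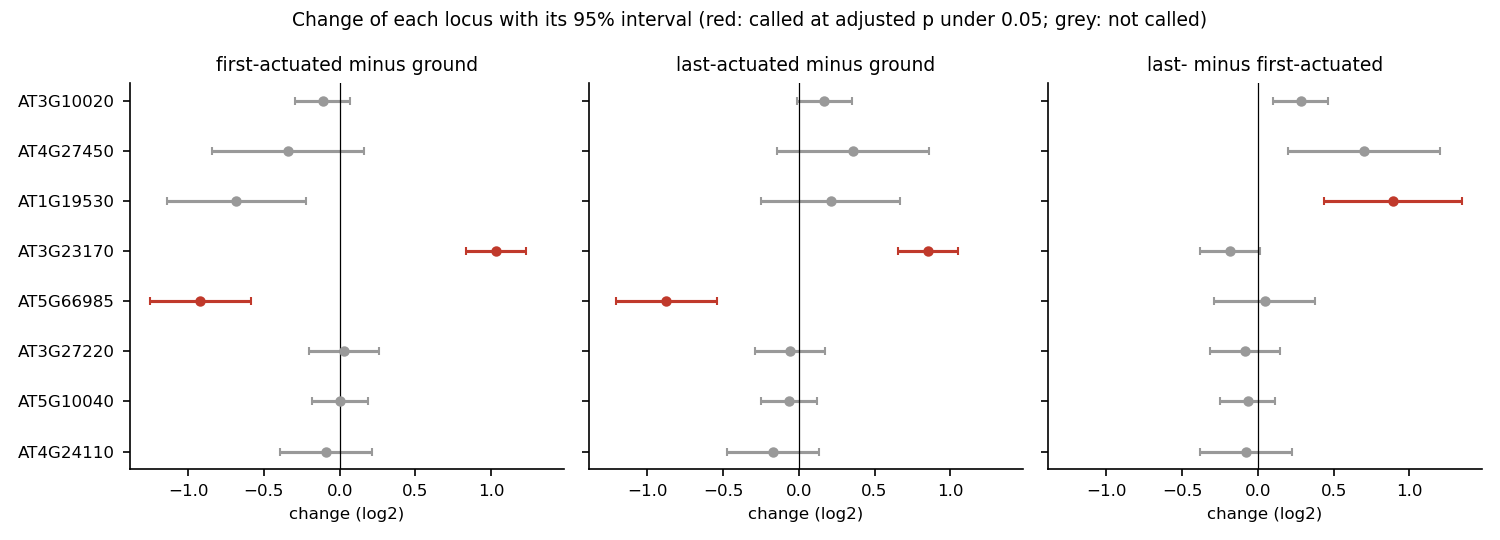
Change of each measured locus on the log2 scale in the 3 comparisons, with its unadjusted 95% interval from limma. Red marks the loci called at an adjusted p under 0.05, which are AT3G23170 and AT5G66985 against ground and AT1G19530 between the in-flight groups, and grey marks the others.

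Counted together, 1 of the 8 loci rose and 1 fell in first-actuated against ground roots, where limma called 4.89% of all 17481 tested probe sets, 2.25% higher and 2.64% lower. Their median change was -0.10, against 0.01 over all tested probe sets. In last-actuated against ground roots 1 rose and 1 fell, with 1.81% of all probe sets called, 0.927% higher and 0.881% lower. The median change was 0.06, against 0.00 over all probe sets. Between the in-flight groups limma called 1 locus higher in last-actuated roots and 0 lower. It called 6.73% of all probe sets, 3.58% higher and 3.15% lower. An unadjusted limma p under 0.05 was reached by 3 loci, AT1G19530, AT4G27450 and AT3G10020, all higher in last-actuated roots. Of all 17481 tested probe sets, 3428 had such a p in either direction. The median change of the 8 loci between the in-flight groups was -0.01, against 0.00 over all.

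Groups did not overlap for 4 of the 8 loci in each comparison. Over all tested probe sets they did not overlap in 20.4% for first-actuated against ground, 16.6% for last-actuated against ground and 21.8% between the in-flight groups. By the moderated F test over the 3 groups, AT3G23170, AT5G66985 and AT1G19530 were called, where 7.65% of all tested probe sets were (limma adjusted p = 0.000218, 0.00579 and 0.0486). The AT1G19530 call of that test was lost without any 1 of 8 of the 9 arrays, all but first-actuated replicate 1 (limma adjusted p = 0.0647 to 0.139), and with the replicate block (limma adjusted p = 0.0658) or all probe sets tested (limma adjusted p = 0.103). The calls and non-overlapping groups included differences in both directions.

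The 95% intervals bound how far each locus could have risen against ground in the tubes sampled. They cover only the variation among pools of roots from a single tube per group, so they do not bound a rise across tubes. In first-actuated roots the interval excluded a rise of 0.3 or more on the log2 scale for 7 of the 8 loci, all but AT3G23170. In last-actuated roots it did so for 4, namely AT5G66985, AT3G27220, AT4G24110 and AT5G10040. For the bright loci the upper bounds there were 1.27-fold for AT3G10020, 1.59-fold for AT1G19530 and 1.82-fold for AT4G27450. These intervals are not adjusted for the number of loci, and those of the dim AT5G10040 and AT4G24110 say little about the transcript. AT3G27220, at 3.57 to 3.93, and AT5G66985 on the in-flight arrays also lay not far above the array medians.

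**Figure D3:**
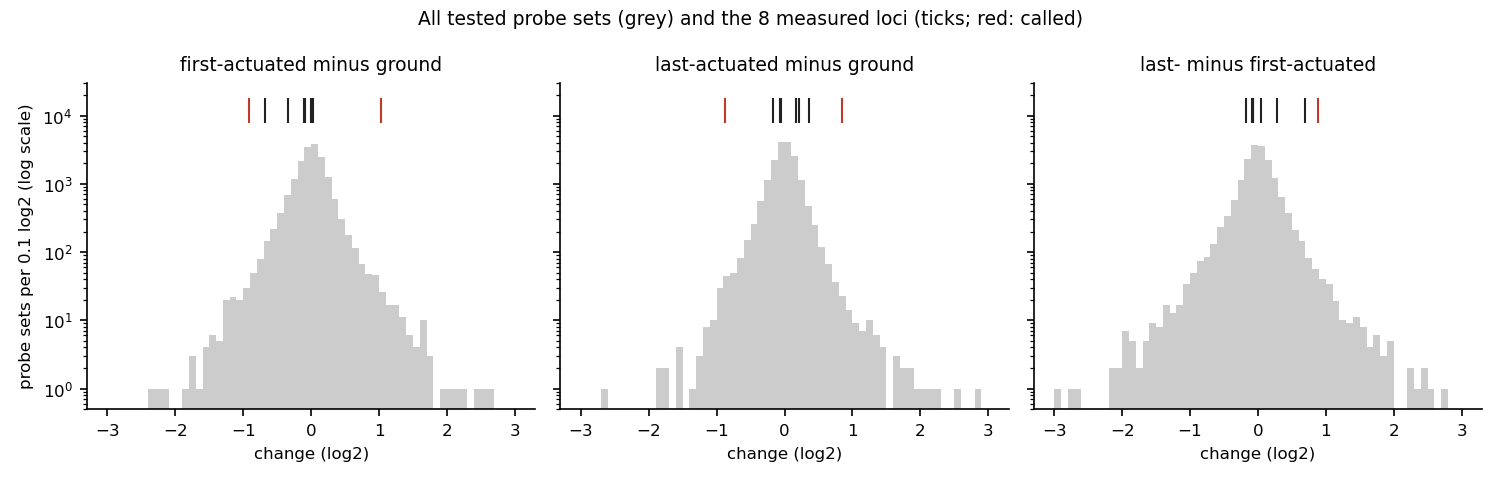
Distribution of the log2 change over all 17481 tested probe sets in the 3 comparisons (grey bars, number per 0.1 log2 unit on a log axis), with a tick for each of the 8 measured loci, red where called. The ticks spread to both sides of 0 against ground.

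Other genes of the low-oxygen response were taken from lists of 47, of which 18 were measured. They comprised 3 of 9 genes of fermentation and sugar breakdown, 1 of 13 of oxygen sensing, 11 of 22 other hypoxia-induced genes and all 3 listed genes of the HIG1-domain family of mitochondrial proteins. In first-actuated against ground roots 1 of the 18 rose and 1 fell, where 4.89% of all tested probe sets were called, and their median change was 0.09 (0.01 over all tested probe sets). In last-actuated against ground roots limma called 2 of the 18 higher and 0 lower, where 1.81% of all were called. The median change of the 18 was 0.01 (0.00 over all). An unadjusted limma p under 0.05 was reached by 6 of them. AT4G17260, AT3G03270, AT4G39675 and AT5G42200 were higher, and PDC2 and AT4G33560 lower. Of all 17481 tested probe sets, 2273 had such a p in either direction. Between the in-flight groups 1 was higher and 1 lower in last-actuated roots, where 6.73% of all were called, and their median was -0.01 (0.00 over all). The classic fermentation markers ADH1 and PDC1 had no named probe set and were not analysed here.

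Of the metabolic genes, AT4G17260, which encodes lactate dehydrogenase, the enzyme that turns pyruvate into lactate, rose in first-actuated roots. It read 5.05, 5.57 and 5.32 on the ground, 5.99, 5.92 and 6.01 in the first-actuated group, and 5.68, 5.81 and 5.83 in the last-actuated group. All in-flight arrays lay above all ground arrays. The first-actuated rise was 0.66 ± 0.12 (SE), or 1.58-fold (limma adjusted p = 0.0133), and was lost when only the compared groups were fitted (limma adjusted p = 0.0548). The last-actuated difference was 0.46 ± 0.12 and did not pass (limma adjusted p = 0.111). It passed without ground replicate 2, at 0.59 (limma adjusted p = 0.0408).

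AlaAT1, an alanine aminotransferase gene whose product makes alanine from pyruvate, read 9.29, 9.47 and 9.35 on the ground, 9.58, 9.77 and 9.77 in the first-actuated group, and 9.34, 9.23 and 9.35 in the last-actuated group. The first-actuated arrays lay above all others. The first-actuated difference from ground was 0.34 ± 0.09 (SE) and missed the threshold (limma adjusted p = 0.0711), but passed with trended, robust moderation, with array weights and without first-actuated replicate 1 (limma adjusted p = 0.0412 to 0.0498). The last-actuated level was below the first-actuated level by log2 -0.40 ± 0.09 (limma adjusted p = 0.0281). The AlaAT1 call missed the threshold under 8 of 16 alternatives, among them the fit of only the compared groups and the removal of first-actuated replicate 2 or 3 or of any last-actuated array (limma adjusted p up to 0.0977). PDC2, a pyruvate decarboxylase gene of ethanolic fermentation, lay near the array medians at 2.87 to 3.61, and its differences from ground, 0.06 in the first-actuated and -0.29 in the last-actuated group, did not pass (limma adjusted p = 0.875 and 0.36).

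In oxygen sensing, the one measured gene was AT3G10040, known as HRA1, a repressor that dampens the response. Its probe set read 2.084 to 2.116, below the array median on all 9 arrays, and its differences were -0.01 to 0.01. Arrays of a group shared the same value to 4 decimals in several cases, so this probe set gave no information on change.

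Among other hypoxia-induced genes, AT3G03270, a gene of the universal stress protein family known as HRU1, rose in last-actuated roots. The ground arrays read 6.48, 7.16 and 6.92, the first-actuated arrays 7.42, 7.56 and 7.44, and the last-actuated arrays 7.59, 8.07 and 8.21. The 3 groups did not overlap. The last-actuated rise was 1.11 ± 0.19 (SE), or 2.15-fold with an interval of 1.61 to 2.87 (limma adjusted p = 0.015). The first-actuated difference of 0.62 ± 0.19 did not pass (limma adjusted p = 0.0959), but passed with the replicate block (limma adjusted p = 0.0429). The difference between the in-flight groups, 0.49 ± 0.19, did not pass (limma adjusted p = 0.181). The last-actuated call was lost without ground replicate 3, last-actuated replicate 2 or last-actuated replicate 3 (limma adjusted p = 0.0501 to 0.0752).

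AT4G39675, a locus of unknown function, fell in first-actuated and rose in last-actuated roots against ground. It read 6.11, 5.93 and 5.71 on the ground, 5.09, 5.12 and 4.74 in the first-actuated group, and 6.52, 6.73 and 7.14 in the last-actuated group. The 3 groups did not overlap, in the same order of means as AT1G19530, AT4G27450 and AT3G10020. AT4G39675 fell by 0.93 ± 0.17 (SE) in first-actuated roots (limma adjusted p = 0.0124) and rose by 0.88 ± 0.17 in last-actuated roots (limma adjusted p = 0.0303). Last-actuated exceeded first-actuated roots by 1.82 ± 0.17, or 3.52-fold with an interval of 2.70 to 4.59 (limma adjusted p = 0.00024), and 13 of 626 probe sets called higher in that comparison changed by more. The first-actuated call was lost without ground replicate 1 (limma adjusted p = 0.0527). The last-actuated call was lost under 7 of 16 alternatives (limma adjusted p = 0.0728 to 0.105). Among them were the fits without ground replicate 2 or 3 and without last-actuated replicate 2 or 3. The others were the fits with all probe sets tested, with only the compared groups, and with the replicate block.

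**Figure D4:**
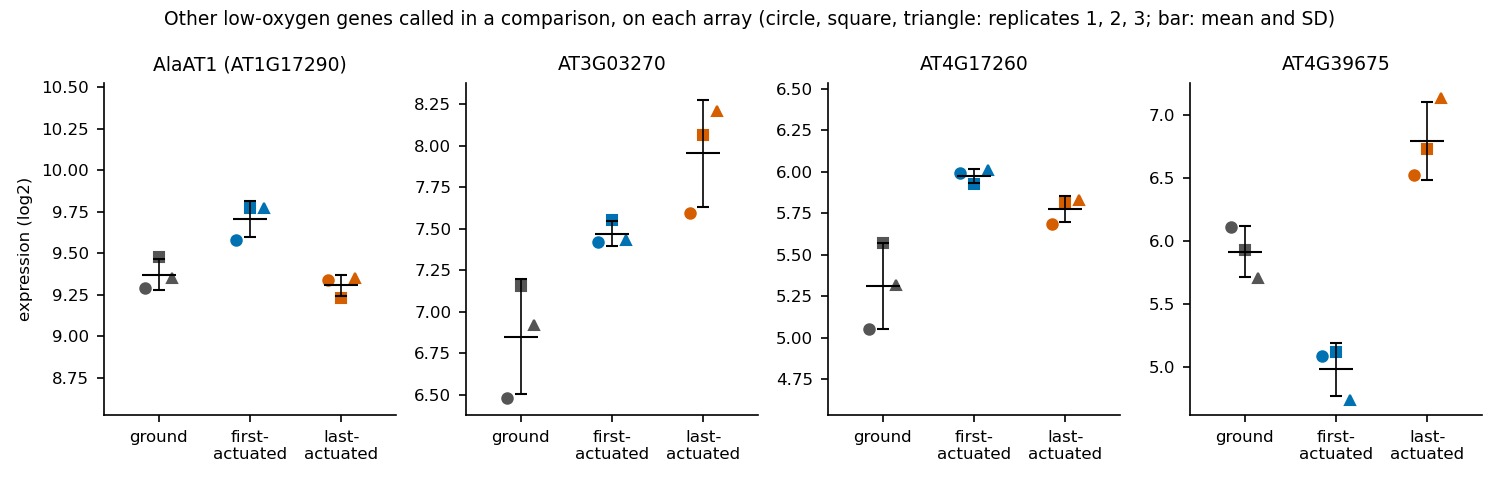
Log2 expression on each array of the 4 other low-oxygen genes called in a comparison, in panels with a vertical range of at least 2 log2 units each. Points are arrays (circle, square and triangle for replicates 1, 2 and 3) and bars are the group mean and SD of 3 arrays. AT4G39675 is lowest in first-actuated and highest in last-actuated roots, AlaAT1 is highest in first-actuated roots, and AT3G03270 and AT4G17260 lie lowest on the ground.

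The other 9 genes of that list were not called in any comparison. AT5G42200, a gene of the RING-finger ubiquitin ligase family, differed from ground by 0.66 ± 0.19 in first-actuated roots (limma adjusted p = 0.0788) and by 0.43 ± 0.19 in last-actuated roots (limma adjusted p = 0.375). The first-actuated difference of AT5G42200 passed with dim probe sets left out (limma adjusted p = 0.0465) and without first-actuated replicate 1 (0.81, limma adjusted p = 0.0498). CML38, a calmodulin-like gene, read 5.78 to 6.01 on the ground, 6.08 to 6.24 in the first-actuated group and 5.53 to 6.17 in the last-actuated group, and its difference between the in-flight groups was -0.39 ± 0.16 (limma adjusted p = 0.215). Without last-actuated replicate 3, its highest array in that group, the CML38 difference was -0.60 and passed (limma adjusted p = 0.0164). AT1G26270, of the phosphatidylinositol kinase family, differed from ground by -0.22 ± 0.11 in first-actuated roots (limma adjusted p = 0.3). AT3G29970 (2.14 to 2.98) and AT4G33560 (2.19 to 2.70) were dim, below the array median on all 9 arrays, as were AT5G44730 and AT2G17850. AT1G74940 and AT5G45960 had differences of -0.09 to 0.21.

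In the HIG1-domain family 0 of 3 genes were called by limma in any comparison, with 1, AT3G05550, at an unadjusted p under 0.05 both in first-actuated against ground roots and between the in-flight groups. AT3G05550 read 5.13, 5.32 and 5.36 on the ground, 5.52, 5.77 and 6.28 in the first-actuated group, and 5.17, 5.36 and 5.33 in the last-actuated group. All first-actuated arrays lay above all others. Its difference from ground was 0.59 ± 0.17 (SE) and missed the threshold (limma adjusted p = 0.0814), but passed without first-actuated replicate 1 (0.76, limma adjusted p = 0.0263). The last-actuated level lay below the first-actuated level by log2 -0.57 ± 0.17 (limma adjusted p = 0.0792), which passed without that array (-0.74, limma adjusted p = 0.0242). Both differences also passed with the replicate block, with dim probe sets left out and with array weights (limma adjusted p = 0.0404 to 0.0489). AT5G27760 differed from ground by -0.25 ± 0.14 and AT3G48030 by -0.16 ± 0.15 in the first-actuated group (limma adjusted p = 0.406 and 0.639).

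For each called locus the genes with the most similar profile over the 9 arrays were found among the other singly named probe sets, as a description of these arrays, which share 3 tubes. Closest to AT3G23170 were AT4G25225 (Pearson r = 0.985) and AT1G73740 (r = 0.976). AT4G25225 read 8.74 to 8.91 on the ground and 9.81 to 10.03 in flight, close in size to the rise of AT3G23170. Closest to AT5G66985 were AT2G21960 (r = 0.986), lower by log2 -0.87 and -0.84 in the first- and last-actuated groups, and AT2G18490 (r = 0.981), a dim probe set. Closest to AT1G19530 were TBL18, of the trichome birefringence-like family (r = 0.980), and AT1G36640 (r = 0.969). AT1G36640 was higher by 1.34 in last-actuated roots when set against the first-actuated ones (limma adjusted p = 0.00176), while TBL18 differed by 0.29 (limma adjusted p = 0.0788). Because these genes were picked for their likeness to a called locus on the same arrays, their differences are not separate support for that call.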

How the data were processed

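The authors deposited log2 values for each probe set. Per the submitters' processing notes, RMA, oligo, limma, R 4.0.0 and TAIR10 were used, with no roles given. RMA as usually run applies quantile normalization, which removes a change shared by most transcripts. Slide and scan date were not assessed, and the number of arrays limits the precision.

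Names came from the platform's annotation and symbols from a RefSeq gene table of TAIR10.1. Of 38408 probe sets, 16722 had 1 gene (16574 matched in that table), 759 several and 20927 none. Probe sets with several genes were tested and count among the 17481 named probe sets below, but their genes are not given here. No coordinates are printed because the builds are named differently.

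limma 3.58.1 in R 4.3.3 (lmFit, eBayes) was fitted to all 9 arrays over the 17481 named probe sets, without a batch term. The scripts were tested on simulated data. Benjamini-Hochberg adjustment ran over all of these probe sets, and an adjusted p under 0.05 was called. Intervals are unadjusted 95% intervals. Alternatives were a fit of the compared groups, a replicate block, all probe sets, a filter on dim probe sets (mean under the table's median), median centring, trended and robust moderation, array weights, and leaving out each array.

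The loci and gene lists were chosen with earlier results of these data known. Named were all measured loci, the listed genes that were called, up to 4 per list of smallest p, and the 2 genes most alike per called locus. Promoter motifs, also planned, were not analysed here.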

Additional observations from a re-analysis of the deposited data

Results flagged for a closer look

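Among the 8 loci and the 18 other low-oxygen genes measured, 3 differed between the in-flight groups by limma's test with all 9 arrays. Of all tested probe sets, 6.73% were called in that comparison. The log2 difference, last-actuated minus first-actuated, was 0.89 for AT1G19530, -0.40 for AlaAT1 (AT1G17290) and 1.82 for AT4G39675. The AT4G39675 call held under all 16 alternatives. The AT1G19530 call held under 10 of 16 and the AlaAT1 call under 8 of 16, and each was lost when certain single arrays were left out. AT4G39675 was called in opposite directions against ground. AT1G19530 and AlaAT1 were not called against ground in the fit reported above. In the first-actuated group both were called without first-actuated replicate 1 (limma adjusted p = 0.023 and 0.0498), and AlaAT1 also with array weights and with trended, robust moderation.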

How the results depend on the processing

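AT3G23170 kept its calls against ground under all 16 alternatives, at 0.99 to 1.09 in the first-actuated and 0.81 to 0.90 in the last-actuated group. AT5G66985 in the first-actuated group and AT4G39675 between the in-flight groups also stayed called under all 16. None of the 11 called values changed sign. Of 378 values of the 8 loci under these alternatives, 10 lost a call, 4 gained one, and 10 uncalled values changed sign. For the 18 other low-oxygen genes measured (context genes), 21 of 846 values lost a call, 16 gained one and 31 uncalled values changed sign.

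With only the compared groups fitted, calls against ground in the first-actuated group numbered 512 probe sets (855 with all groups) and 1 context gene (2 with all groups). The last-actuated group then had 1 of the 8 loci and 0 context genes called by limma against ground, where 219 of all 17481 probe sets were called. Between the in-flight groups 0 loci and 1 context gene were called by limma, where 855 of all probe sets were called (1177 with all groups). AT5G66985 (adjusted p = 0.0605) and AT3G03270 (adjusted p = 0.0682) in the last-actuated group and AT1G19530 between the in-flight groups (adjusted p = 0.0744) were among the calls lost. That fit has fewer samples behind its spread, but why these calls were lost was not tested. With all 38408 probe sets tested, 1794 were called between the in-flight groups. The fit reported above called 1177 of the 17481 named ones, so these counts have unlike totals. Among the 1794 were 0 of the 8 loci by limma (AT1G19530 at limma adjusted p = 0.0613) and 1 context gene. For the last-actuated group against ground 1 context gene was called, where 442 of all probe sets were called. This alternative adjusts over more probe sets and also pools the spread over them. The part of each in the lost calls was not tested. Centring and trended, robust moderation each called 2 loci between the in-flight groups, where they called 1253 and 1227 of all probe sets. Without dim probe sets, and with array weights, 4 context genes were called for the first-actuated group, where 1048 and 935 probe sets were called.

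Same-numbered arrays did not deviate together. Their deviations from the group means correlated at -0.09 to 0.04 over 9 pairs, and 1 of 9 arrays correlated best with its own number. The values thus gave no sign of a pairing by number. The labels do not say whether a number marks a shared batch, so a pairing in handling cannot be judged. With the replicate block 4 context genes were called for the first-actuated group against ground, where 723 probe sets were called. For the last-actuated group 1 context gene was called, where 247 probe sets were called. The counts of called loci in the 3 comparisons did not change, and the F test called 2 loci in place of 3.

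Leaving out each array in turn gave 549 to 807 probe sets for the first-actuated group, with 1 to 5 context genes. For the last-actuated group it gave 179 to 333 probe sets, 1 to 2 loci and 0 to 2 context genes. Between the in-flight groups it gave 724 to 1119 probe sets, 0 to 2 loci and 1 to 3 context genes. The F test called 2 to 3 loci. The cause of these changes was not tested.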
